A study of Mus musculus with 6 samples.

Results

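The genes described here are 33 complement and coagulation genes, chosen by name: 19 of the complement system and 14 of blood clotting and its control. Each is a row of the deposited gene table whose symbol, split at commas, is on that list. The list was set with earlier results of these data known. All 33 had a locus, out of 28539 loci in the table. C2 and Cfb share 1 merged locus. Thbd has a pair of rows at the same position, each counted as a locus, so the 33 genes have 33 loci.

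Gene expression was measured by RNA-seq of poly(A) cDNA from whole corneas of female C57BL/6J mice aged 6 to 8 weeks. There were 6 samples in 3 groups of 2. Corneas of day 0 were untreated, day 5 is labelled post-operative, and day 15 is labelled as the stage of regression. The labels do not name the injury; the published study used a burn with alkali, after which vessels grow into the normally clear and vessel-free tissue. Nothing in the labels tells if a sample was 1 animal or a pool of corneas. Markers of corneal stroma and surface were high at day 0, with Kera (keratocan, a stromal proteoglycan) at an FPKM of 516 and Upk1b, a tetraspanin of the surface epithelium, at 995. Krt12, the main corneal keratin, has no usable value at day 0, because its status there was not OK.

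Each value is an FPKM, a fragment count scaled for transcript length and library size, which the authors give as 1 value for the pooled samples of each group. The range after a value is the authors' interval for that group. The spread between samples is therefore not visible, and the comparisons carry neither a test nor a p-value. The number of reads is unknown. At an FPKM of at least 5 the half-width of the interval had a median of 54.3% of the value at day 0, 52.9% at day 5 and 52.3% at day 15. A locus is called apart between groups under 3 conditions: an FPKM of 1 or more in the higher group, a log2 ratio of (FPKM + 1) of 1 or more in either direction, and intervals without overlap. Folds are ratios of FPKM without the added 1.

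Complement is a cascade of plasma and tissue proteins that tags microbes and damaged cells. It is started by C1q bound to antibody or to dying cells, by lectins, or by slow spontaneous activation of C3, and it ends in pores formed by the terminal components. Blood clotting is started when tissue factor, the product of F3, meets factor VII outside the vessel, and thrombin then acts both on fibrinogen and on receptors of cells. Liver makes most of these plasma proteins, while macrophages are known to make C1q and properdin. The healthy cornea has no blood vessels, and complement inhibitors are found on its surface.

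After the burn, part of the complement set was higher, including the C1q chain gene C1qb, the properdin gene Cfp, the receptor gene C3ar1 and the clusterin gene Clu. F13a1, the gene of the clot cross-linking factor, was higher as well. Day 5 versus day 0 had 7 of the 33 member loci higher and apart, namely C1qb, Cfp, C3ar1, Clu, F5, F13a1 and Tfpi2, and 0 lower and apart. Over the whole table, 3.42% of 15576 loci were higher and apart and 2.5% lower and apart in that comparison. Day 15 versus day 0 had 6 member loci higher and apart, namely C1qb, C1qc, Cfp, C3ar1, Clu and F13a1, and 0 lower and apart, against 2.91% and 1.81% of 15186 loci. Day 15 versus day 5 had 0 member loci apart, against 0.395% higher and 0.388% lower of 14683 loci. These shares are over loci that reached 1, and the members had 24, 23 and 24 such loci in the 3 comparisons in that order. Both comparisons with day 0 share its samples.

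Of the 33 loci, 24 reached an FPKM of 1 in at least 1 group and 9 did not. Over all 33 loci the median log2 ratio to day 0 was 0.79 for day 5 and 0.49 for day 15, where all loci of the table together had 0.00 in both. Loci near 0 in every group pull that 0.00 towards 0, since 15576 and 15186 of the 28539 loci reached 1. Of the 33 member loci, 24 and 23 did, so these medians are not like for like and add no support. Among loci that reached 1 in either group of the comparison, the members' medians were 1.12 and 0.98, beside -0.09 and -0.10 over all such loci. Members that entered only through the group where they were high had to differ, so these last medians describe and do not add support. In whole tissue, a higher value from more cells of a type and one from more RNA per cell cannot be told apart.

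**Figure D1:**
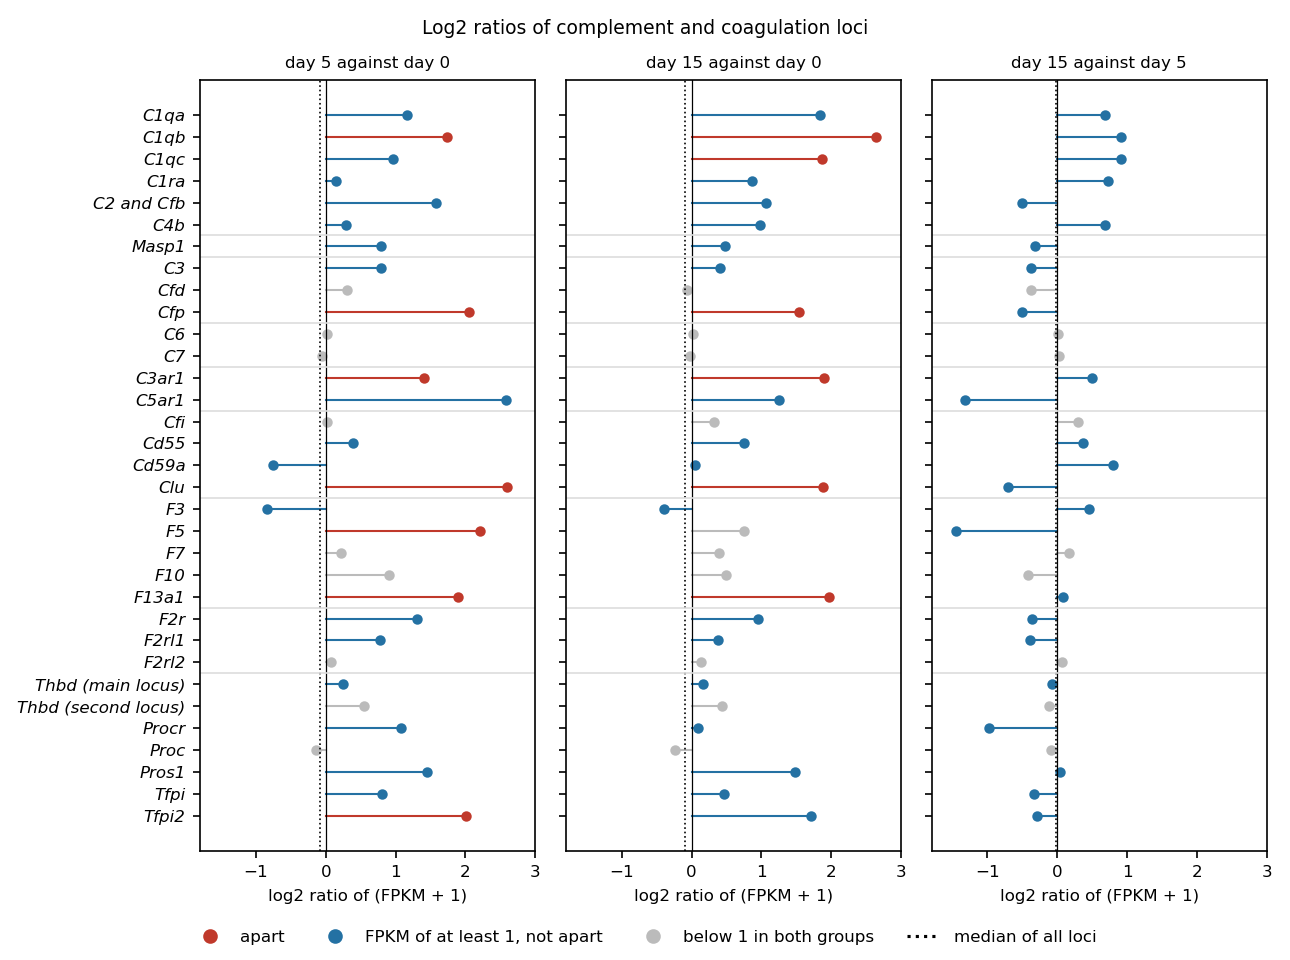
Log2 ratio of (FPKM + 1) for each of the 33 member loci (rows, grouped by role between grey lines) in 3 comparisons (panels), with colours for apart, not apart and below 1 in both groups, and a dotted line at the median of all loci. Red points lie to the right in both panels with day 0 (7 and 6 loci), and the panel of day 15 versus day 5 has none.

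C1q, the recognition protein of the classical pathway, has chains encoded by C1qa, C1qb and C1qc, and 2 of the 3 genes were higher and apart at day 15. These genes lie side by side on the minus strand of chromosome 4 (136880145 to 136898844 on mm10). C1qb had an FPKM of 28.1 (9.23 to 46.98) on day 0, 96.2 (49.7 to 143) on day 5 and 182 (97.1 to 266) on day 15. Its day 5 and day 15 intervals lie above that of day 0, with a fold of 3.42 at day 5 and 6.46 at day 15. The gap at day 5 was narrow, the lower bound at day 5 being 1.06 times the upper bound at day 0, and at day 15 it was 2.07 times. C1qc had 4.63 (0.846 to 8.42) on day 0, 9.99 (3.41 to 16.6) on day 5 and 19.7 (8.64 to 30.7) on day 15. It was apart at day 15, at 4.25-fold with a bound ratio of 1.03, and not at day 5. C1qa had 18.4 (2.97 to 33.9) on day 0, 42.3 (17.1 to 67.6) on day 5 and 68.6 (31.4 to 106) on day 15. It was not apart in any comparison, and at day 15 its lower bound of 31.4 fell just short of the day 0 upper bound of 33.9.

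All 3 chains had their highest value at day 15. Their summed FPKM was 51.2 at day 0, 149 at day 5 and 269.9 at day 15. C1qb was the highest of the chains in each group and made up 54.9% of that sum at day 0, 64.8% at day 5 and 67.3% at day 15. These chains are assembled in equal numbers in the protein, which the FPKM values do not show. Of 11 macrophage marker loci, 4 were also higher and apart at day 15 versus day 0, and their part in the C1q values was not tested.

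The other starters of the classical pathway were not apart in any comparison. C1ra, a protease of the C1 complex, had 23.7 (11.7 to 35.8) on day 0, 26.3 (14.04 to 38.5) on day 5 and 44.1 (23.4 to 64.7) on day 15. Its intervals overlap in all comparisons. C4b, the complement component C4, had 4.33 (0.686 to 7.97) on day 0, 5.52 (0.379 to 10.7) on day 5 and 9.53 (3.45 to 15.6) on day 15, and it was not apart. C1ra and C4b have near-identical copies, C1rb and C4a, which had at most 0.0397 and 0.0735, and reads may be split between copies. The C4b locus also spans 8.68 times the length of its gene and covers 7 other annotated genes, so its value is uncertain. C2, the protease that joins C4 in the classical C3 convertase, cannot be told apart from Cfb, its counterpart in the alternative pathway. Their merged locus had 4.34 (0 to 9.26) on day 0, 14.9 (5.22 to 24.6) on day 5 and 10.2 (4.16 to 16.2) on day 15, a ratio of 3.43 at day 5 that was not apart.

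Start regions are shown for 5 members that were higher and apart from day 0 in at least 1 comparison. They come from RefSeq (GRCm38.p6, the mm10 assembly) and run from 250 bases before to 50 bases after the annotated start, 5′ to 3′ on the gene's strand. Capitals mark GAGGAA or its reverse complement, the core bound by the myeloid factor PU.1, in the first 4. In the last, C3ar1, they mark TGANTCA, bound by AP-1, since its window has no GAGGAA on either strand. The windows and the motif marked in each were picked with the values known, so a marked match in every window is no finding. Tfpi2, which has matches to both motifs, is not shown. The positions are chr4:136886151-136886450 for C1qb, chr4:136892865-136893164 for C1qc, chrX:20931506-20931805 for Cfp, chr13:37050195-37050494 for F13a1 and chr6:122856108-122856407 for C3ar1, all on the minus strand.
C1qb: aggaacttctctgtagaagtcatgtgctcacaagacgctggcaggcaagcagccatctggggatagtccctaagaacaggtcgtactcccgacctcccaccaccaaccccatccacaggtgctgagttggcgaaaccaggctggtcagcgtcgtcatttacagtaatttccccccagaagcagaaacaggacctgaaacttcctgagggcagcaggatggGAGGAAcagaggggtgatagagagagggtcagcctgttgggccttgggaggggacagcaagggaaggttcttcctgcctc
C1qc: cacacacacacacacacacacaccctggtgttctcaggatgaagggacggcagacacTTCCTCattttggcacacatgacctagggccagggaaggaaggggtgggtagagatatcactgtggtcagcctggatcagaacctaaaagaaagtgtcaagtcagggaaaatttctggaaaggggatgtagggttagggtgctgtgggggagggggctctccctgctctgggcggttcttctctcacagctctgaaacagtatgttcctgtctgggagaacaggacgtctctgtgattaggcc
Cfp: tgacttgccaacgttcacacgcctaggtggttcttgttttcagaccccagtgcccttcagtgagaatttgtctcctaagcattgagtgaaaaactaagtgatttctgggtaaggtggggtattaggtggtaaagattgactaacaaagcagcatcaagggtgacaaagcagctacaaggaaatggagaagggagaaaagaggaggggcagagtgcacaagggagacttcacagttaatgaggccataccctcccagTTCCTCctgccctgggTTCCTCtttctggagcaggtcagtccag
F13a1: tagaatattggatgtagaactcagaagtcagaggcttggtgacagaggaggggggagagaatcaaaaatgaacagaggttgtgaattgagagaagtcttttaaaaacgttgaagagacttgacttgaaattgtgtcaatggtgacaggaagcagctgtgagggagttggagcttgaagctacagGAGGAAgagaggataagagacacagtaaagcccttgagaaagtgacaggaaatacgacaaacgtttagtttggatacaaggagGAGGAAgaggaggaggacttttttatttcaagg
C3ar1: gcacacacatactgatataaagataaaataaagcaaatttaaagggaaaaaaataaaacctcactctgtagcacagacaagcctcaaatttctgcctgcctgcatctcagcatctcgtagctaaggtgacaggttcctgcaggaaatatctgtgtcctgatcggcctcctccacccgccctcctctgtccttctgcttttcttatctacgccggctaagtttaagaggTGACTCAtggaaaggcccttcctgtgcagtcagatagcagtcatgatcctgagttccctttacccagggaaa
In the windows shown, GAGGAA begins 30 bases before the start of C1qb and 66 before that of F13a1, with another 18 after, and TGACTCA 22 before that of C3ar1. The reverse complement begins 193 bases before the start of C1qc, and 7 and 23 after that of Cfp. A window was found in RefSeq for 23 of the 33 members, and for 7 of the 8 that were apart in any comparison. GAGGAA on either strand was in a window of 5 of these 7 (C1qb, C1qc, Cfp, F13a1 and Tfpi2), of 10 of the 23, and in 28.3% of all 32851 windows. TGANTCA was in windows of 2 of the 7 (C3ar1 and Tfpi2), of 6 of the 23, and in 7.81% of all. The other motifs searched on both strands were TTGCNNAA (C/EBP, in 10.8% of all windows), GGG and TTCC with 3 bases of any kind between (NF-kB, 5.56%), TTCNNNGAA (STAT, 8.30%), GAAA repeated after 2 bases of any kind (ISRE, 3.44%) and TATAAA (13.6%), and they were in windows of 0, 2, 0, 0 and 1 of the 7. In F13a1 the NF-kB match overlaps a GAGGAA in a second window of that gene. The 23 members have 27 windows, so a match is more likely for those with several. These are matches of letters in short windows, and binding was not measured.

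Among genes of C3 and the alternative pathway, Cfp was the only locus apart. Cfp encodes properdin, which stabilises the alternative C3 convertase and is made by leukocytes. It had 0.796 (0.267 to 1.33) on day 0, 6.44 (3.13 to 9.75) on day 5 and 4.25 (1.87 to 6.62) on day 15, and was 8.09-fold higher at day 5 and 5.33-fold higher at day 15, apart in both (chromosome X, 20925535 to 20931524). C3 itself, the component on which all pathways meet, had 1.28 (0.657 to 1.91) on day 0, 2.93 (1.41 to 4.45) on day 5 and 2.03 (1.04 to 3.01) on day 15. It was low throughout and not apart, with intervals that overlap. Cfd, the protease that activates Cfb, had values from 0.128 to 0.457 on a locus that spans 373 times the length of its gene and covers 55 other annotated genes, so that nothing can be read from it. Masp1, a protease of the lectin pathway that lies across other genes on the opposite strand, had 6.12 (2.87 to 9.37) on day 0, 11.3 (5.86 to 16.8) on day 5 and 8.91 (4.24 to 13.6) on day 15 and was not apart.

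C3ar1 and C5ar1 encode receptors for the small fragments of C3 and C5, which call in leukocytes. Both had higher values after the burn. C5ar2, a further C5a receptor gene outside the member list, did not rise by day 5. Its FPKM was 1.04 in untreated corneas, then 0.881 and later 1.21, with overlapping intervals. C3ar1, the C3a receptor, had 0.913 (0.0541 to 1.77) on day 0, 4.06 (1.92 to 6.21) on day 5 and 6.15 (2.92 to 9.39) on day 15. It was apart at both times, 4.45-fold higher at day 5 and 6.74-fold at day 15, and the lower bound at day 5 was 1.08 times the upper bound at day 0. C5ar1, the C5a receptor of neutrophils and macrophages, had 1.68 (0 to 3.52) on day 0, 14.9 (0 to 35.2) on day 5 and 5.37 (0 to 13.9) on day 15. Its fold of 8.91 at day 5 was above that of Cfp, but its interval reached 0 in every group, with a half-width of 136% of the value at day 5, and it was not apart. The terminal components, which form the pore, were close to 0 in all groups, with C6 between 0.00831 and 0.0268 and C7 between 0.00836 and 0.0491.

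**Figure D2:**
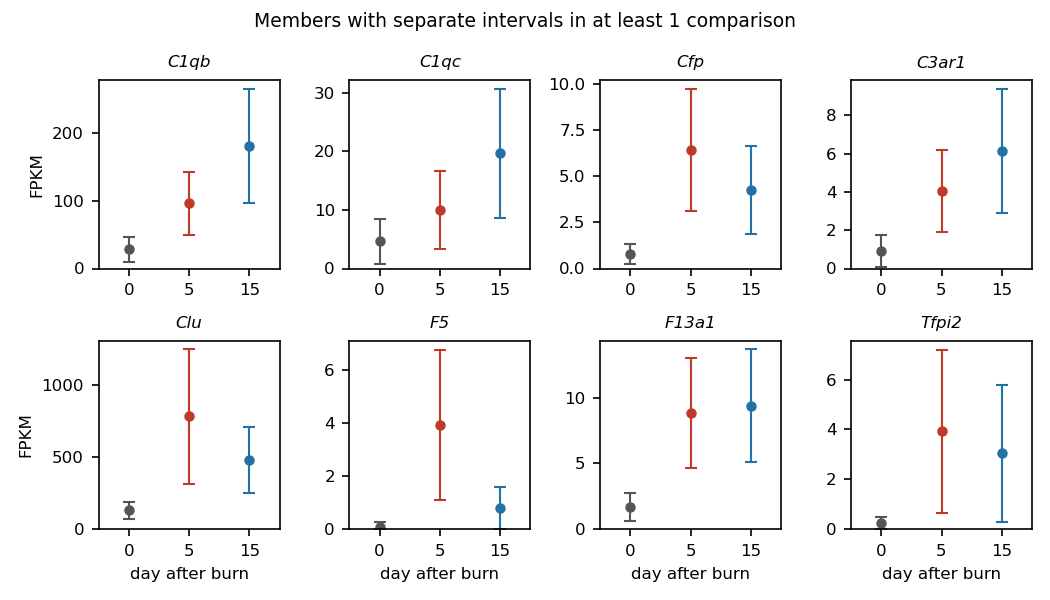
FPKM (vertical axis, linear, own scale for each gene) at days 0, 5 and 15 for the 8 member loci apart in at least 1 comparison, with points for the authors' pooled values and bars for their intervals. C1qb, Cfp, C3ar1, Clu and F13a1 have both burn intervals above day 0, C1qc has that of day 15, and F5 and Tfpi2 have that of day 5.

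Of the 4 inhibitor loci, Clu alone was apart. Clu encodes clusterin, a secreted chaperone that also blocks the terminal pore, and it had the highest FPKM of all member loci in each group. It had 129 (71.6 to 186) on day 0, 780.4 (314 to 1247) on day 5 and 477 (250.3 to 704) on day 15. It was 6.05-fold higher at day 5 and 3.70-fold at day 15, apart both times (chromosome 14, 65968483 to 65981545). Among 23889 loci with a symbol it ranked 682nd at day 0, 115th at day 5 and 202nd at day 15. Cd59a, a membrane protein that stops pore assembly, had 25.6 (11.99 to 39.2) on day 0, 14.7 (6.65 to 22.8) on day 5 and 26.5 (13.1 to 39.9) on day 15. Its day 5 value was 1.74-fold lower than that of day 0, with overlapping intervals, and day 15 was at 1.04-fold of day 0. Its close copy Cd59b had at most 2.86, and reads may be split between them. Cd55, which speeds the decay of C3 convertases, had 2.96 (1.13 to 4.78) on day 0, 4.16 (1.91 to 6.4) on day 5 and 5.66 (2.82 to 8.51) on day 15, not apart, and overlaps a gene on the other strand. Cfi, the plasma protease that cuts C3b, stayed between 0.0963 and 0.364.

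On the clotting side, the initiator was expressed before injury and the factors were low. F3, tissue factor, which epithelia and stromal cells carry as a barrier against bleeding, had 101 (56.1 to 145) on day 0, 55.6 (30.1 to 81.1) on day 5 and 76.2 (42.8 to 109.6) on day 15. Its day 0 value was the highest of the 3 groups, the only such case among the 24 loci that reached 1, and its intervals overlap, with day 5 lower by 1.81-fold. At day 0 Clu and F3 were the highest members, and their intervals overlap. Both stood clear of C1qb, the next in order. F13a1, the A subunit of the transglutaminase factor XIII, which cross-links fibrin and which platelets and macrophages carry, had 1.66 (0.595 to 2.72) on day 0, 8.82 (4.62 to 13.01) on day 5 and 9.39 (5.09 to 13.7) on day 15. It was 5.33-fold higher at day 5 and 5.68-fold at day 15, apart in both (chromosome 13, 36867178 to 37050244), and overlaps predicted genes on the other strand.

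F5, the cofactor that speeds thrombin formation, had 0.0747 (0 to 0.272) on day 0, 3.95 (1.12 to 6.78) on day 5 and 0.804 (0.00594 to 1.6) on day 15. It was apart at day 5, and at day 15 it was below 1 with an interval that overlapped both others. Its fold of 52.9 at day 5 rests on a day 0 value near 0 and is imprecise; the bound ratio was 4.11. The F5 locus spans 1.53 times the annotated gene and overlaps one on the other strand. F7, the factor that tissue factor binds, was listed at 0 at day 0 and had 0.166 at day 5 and 0.314 at day 15. F10, the factor that cuts prothrombin, was also listed at 0 at day 0 and had 0.868 at day 5 and 0.402 at day 15. Neither reached 1 in any group.

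The protease-activated receptors let cells sense clotting proteases. F2r, the main thrombin receptor, had 9.48 (4.64 to 14.3) on day 0, 24.8 (13.4 to 36.3) on day 5 and 19.2 (10.01 to 28.4) on day 15. Its fold of 2.62 at day 5 fell just outside the rule, the day 5 lower bound being 0.933 of the day 0 upper bound. F2rl1, the receptor cut by trypsin-like proteases in epithelia, had 22.7 (12.4 to 32.996) on day 0, 39.6 (22.4 to 56.9) on day 5 and 29.9 (16.6 to 43.2) on day 15 and was not apart. F2rl2, a cofactor receptor for thrombin on mouse platelets, stayed between 0.0599 and 0.167 on a locus far longer than the gene, which Iqgap2 overlaps on the other strand.

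Of the 7 loci of genes that restrain clotting, Procr, Pros1 and the main Thbd locus had intervals above 1 in the uninjured cornea. Procr, the endothelial receptor of protein C, had 25.6 (8.92 to 42.2) on day 0, 55.2 (25.7 to 84.8) on day 5 and 27.5 (10.9 to 44.05) on day 15. The value of day 5 was 2.16-fold that of day 0 and day 15 was at 1.07-fold, with overlapping intervals. Pros1, protein S, the cofactor of activated protein C, had 11.6 (3.51 to 19.7) on day 0, 33.4 (17.2 to 49.5) on day 5 and 34.3 (16.9 to 51.7) on day 15. Both burn groups were close to 3-fold higher in value, at 2.87 and 2.95, and both missed the rule, with bound ratios of 0.874 and 0.859. Thbd, thrombomodulin, which turns thrombin towards protein C, had 7.31 (3.54 to 11.1) on day 0, 8.89 (4.44 to 13.3) on day 5 and 8.35 (4.04 to 12.7) on day 15 at its main locus, and at most 0.710 at the second. It was not apart. Both entries have the same position, and reads may be split between them. Proc, protein C itself, made in the liver, had 0.173 at day 0 and 0.0612 at day 5, and was listed at 0 at day 15.

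Tfpi, the inhibitor of the tissue factor complex, had 13.9 (0 to 46.7) on day 0, 25.02 (0 to 70.2) on day 5 and 19.7 (0 to 57.8) on day 15. Its intervals reach 0 in each group, with a half-width of 235% of the value at day 0, so a difference was not detectable. Tfpi2, a related inhibitor found in matrix, had 0.229 (0 to 0.499) on day 0, 3.93 (0.66 to 7.2) on day 5 and 3.04 (0.281 to 5.8) on day 15. It was 17.2-fold higher at day 5 and apart, with a bound ratio of 1.32. At day 15 it was 13.3-fold higher and not apart, since its lower bound of 0.281 lay below the day 0 upper bound of 0.499. Both folds rest on a day 0 value near 0 and are imprecise. Its locus covers 0.219 of the annotated span.

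**Figure D3:**
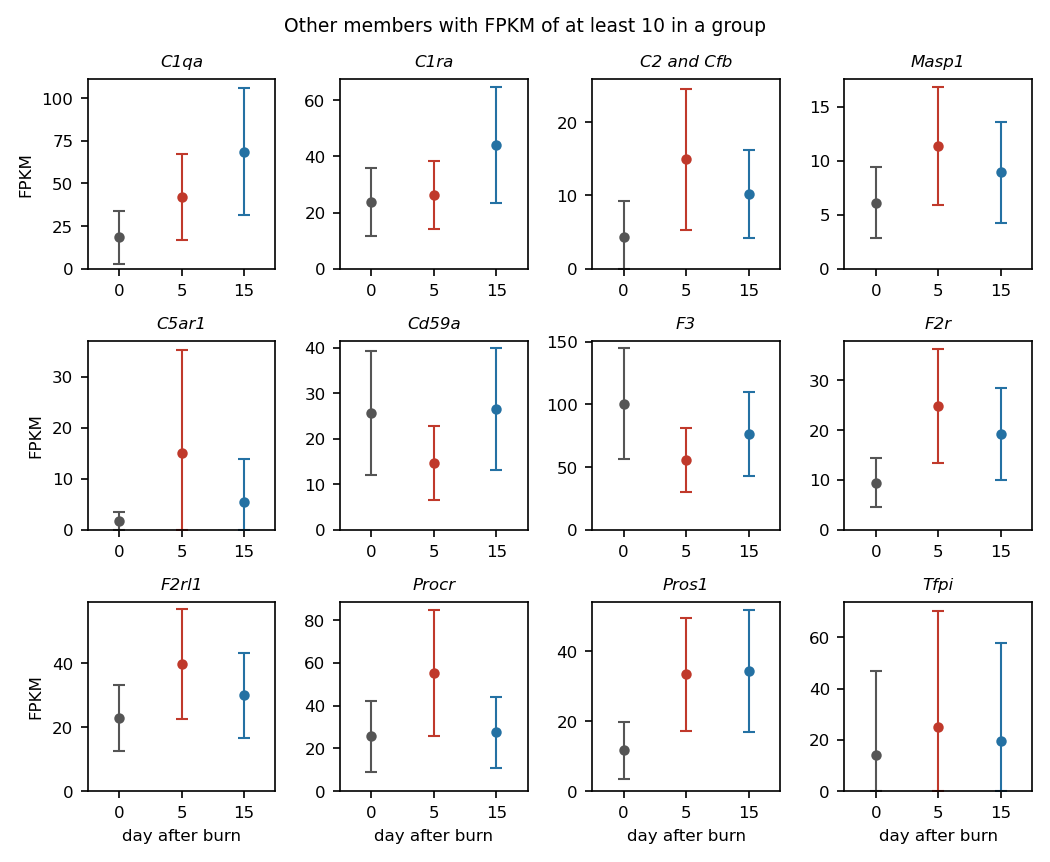
FPKM (vertical axis, linear, own scale for each gene) at days 0, 5 and 15 for the other 12 member loci that reached an FPKM of 10 in a group, with points for the authors' pooled values and bars for their intervals. In each panel the bars of the groups overlap, F3 is highest at day 0, and the bars of C5ar1 and Tfpi reach 0 in all groups.

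Between day 15 and day 5 no member locus was apart, and the median log2 ratio over the members that reached 1 was -0.18, which turned to 0.039 with an FPKM of at least 5. Of the 24 loci that reached 1 at day 5 or day 15, 11 had a higher value at day 15 than at day 5 and 13 a lower one. Of the 6 loci grouped as starters of the classical pathway (the merged locus counted here), 5 had a higher value at day 15, with ratios from 1.62 for C1qa to 1.97 for C1qc, and that merged locus a lower one. The 2 loci of C3 and the alternative pathway that reached 1, C3 and Cfp, had lower values at day 15, at 2.03 and 4.25, against 2.93 and 6.44 at day 5. Of the 5 anticoagulant loci that reached 1, 4 had lower values at day 15. The median log2 ratio was 0.43 over 14 complement loci and -0.31 over 10 coagulation loci, beside -0.01 over all loci. Among loci that reached 1, the largest falls in value were those of F5, at 4.91-fold, and C5ar1, at 2.78-fold, both with overlapping intervals.

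Other genes of both pathways were read from lists of 42 complement genes and 38 clotting and platelet genes. Of 39 complement loci, 23 stayed below 1 in all groups. Compared with day 0, 2 were higher and apart and 2 lower and apart at day 5, and 4 higher and 1 lower at day 15. Those counts are out of 14 and 16 listed loci that reached 1. Over all such loci of the table the shares were 3.42% higher and 2.5% lower at day 5, and 2.91% and 1.81% at day 15. Itgb2, the integrin chain shared by leukocyte complement receptors, had 13.1 at day 5 and 11.1 at day 15, against 1.63 at day 0, and was apart in both. Cd93, a surface protein of endothelium and myeloid cells once described as a C1q receptor, was 11.8-fold and 8.81-fold higher in those groups, also apart in both. Itgax, an alpha chain that pairs with Itgb2, and Hc, the mouse gene of component C5, were apart at day 15, at 1.91 and 1.56, against 0.363 and 0.161 at day 0. Itgam, a further integrin chain on the list, was already at 34.0 on day 0. It had 40.0 at day 5 and 55.7 at day 15, with overlapping intervals, and was not apart in any comparison.

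Among the genes lower after the burn were regulators. Susd4, a complement inhibitor, had 1.79 at day 5 and 3.44 at day 15, against 12.3 at day 0, and was apart at day 5. Cpn1, the catalytic subunit of the carboxypeptidase that inactivates C3a and C5a, had 0.522 at day 5 and 0.552 at day 15, against 3.77 at day 0, apart at both times. Serping1, the C1 inhibitor, had 70.4 at day 5 and 84.2 at day 15, against 129 at day 0, and was not apart. Cr1l, the rodent membrane regulator, had 71.7 at day 5 and 84.1 at day 15, against 71.5 at day 0, and was not apart.

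Of 39 clotting and platelet loci, 16 reached 1 in each comparison with day 0. At day 5, 3 were higher and apart and 1 lower and apart, against 3.42% and 2.5% of all loci that reached 1. At day 15, 2 were higher and apart, against 2.91%. Pf4, a chemokine stored in platelets, had 137 at day 5 and 107 at day 15, against 11.5 at day 0. Vwf, the carrier of factor VIII made by endothelium, had 2.88 and 3.55, against 0.776. Itgb3, an integrin chain of platelets and other cells, was apart at day 5, at 3.25 against 0.654. The locus merged from Gp1bb and Sept5 was lower and apart at day 5, at 7.25 against 21.4, and cannot be assigned to either gene. Fga and Fgg, genes of fibrinogen chains, were listed at 0 in all groups, and Fgb, F2 (prothrombin), F9, F11 and F12 had at most 0.0989.

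Some cell markers in the same samples were also higher after the burn, and others were lower. Over all loci that reached 1, 3.42% were higher and apart from day 0 at day 5 and 2.91% at day 15. The shares lower and apart were 2.5% and 1.81%. Of 11 macrophage loci, the higher and apart ones numbered 3 at day 5 and 4 at day 15, and the summed FPKM of the 10 with a single symbol was 93.8 at day 0, 509.7 at day 5 and 771 at day 15. Emr1, which encodes F4/80, had 1.53, 5.08 and 9.07 in that order, and no macrophage locus was listed at 0. Relative to day 0, 10 of the 11 macrophage loci rose in value by day 5 and 9 by day 15. The exceptions were Cx3cr1, with 3.12, 2.67 and 7.46, Cd163, with 3.20, 3.53 and 2.41, and the merged Cd68 locus, with 579, 587 and 559. These 3 loci were not apart in any comparison. Lyz2, the lysozyme gene of myeloid cells, made up 88.9% of the sum at day 15, and without it the sums were 25.4, 125.02 and 85.9, highest at day 5. Cd14, a receptor for bacterial lipopolysaccharide, was lower and apart at day 15 versus day 5, at 19.9 against 75.1. Among 14 neutrophil loci, 5 stayed below 1 in all groups. They included Elane, listed at 0 throughout, Mpo with at most 0.0194, Ngp with at most 0.222 and Camp with at most 0.818. The sum over the 14 loci was 38.0, 1656 and 867. Without the most abundant Ltf (lactoferrin) locus, which made up 87.6% at day 15, these sums were 22.3, 413 and 107. The sum over 11 endothelial loci was 32.6, 195 and 137, with 6 of 12 higher and apart from day 0 at each time. Without Erg, a transcription factor of endothelium, they were 20.5, 76.9 and 81.0, so the lower sum at day 15 than at day 5 rests on that locus. Of 10 platelet loci 2, Pf4 and Ppbp, were higher and apart at both times, with Gp6 at 0 in all groups and Gp9 at 0 except for 0.167 at day 15. Another 2 that reached 1 fell below their day 0 values both times. One was the merged Gp1bb and Sept5 locus, lower and apart at day 5 only. The other was an Itga2b locus, with 10.01, 3.96 and 4.34 in group order and intervals that reach 0. Of 13 liver plasma protein loci, 10 stayed below 1 in all groups, with Alb at most 0.00947. The others were Ttr at 19.3, 6.20 and 16.7, Apoa2 at 0.674, 2.32 and 0.644, and Serpina1b at 0.823, 0.316 and 3.38. None of them was apart in any comparison. Keratocyte and corneal epithelial loci that could be compared had 5 of 10 and 4 of 10 lower and apart at day 5. The part of cell composition in the members' values was not tested.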

How the data were processed

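The deposited table is the authors' Cuffdiff output with 1 FPKM, interval and status per group, pooled over 2 samples, per the file headers. The tools listed are Bowtie2 2.2.6 and TopHat2 2.1.0, with build mm10, and Cufflinks 2.2.1 and Cuffdiff (version not given) are also listed, per the submitters' processing notes. Strandedness is not given in the sources used here, so genes overlapping on opposite strands are uncertain.

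The call rule was run on all 28539 loci (pseudocount 1, FPKM of at least 1, log2 ratio of at least 1, separate intervals, status OK) and tested on simulated data. Named genes were all members, with values for those apart or at an FPKM of 10 or more, and up to 8 listed pathway genes that were apart; some pathway and marker genes outside that rule were named after their values were seen. Members and lists were chosen with earlier results of these data known, and the motifs and the windows shown with the values known. Motifs were searched in RefSeq windows. File starts count from 0 and were raised by 1; spans were set against GENCODE annotation. Alternatives varied the pseudocount, filter, fold, intervals, scaling and uncertain loci. Python 3.11.15, numpy 2.4.6, pandas 2.3.3 and matplotlib 3.10.9 were used.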

Additional observations from a re-analysis of the deposited data

How the results depend on the processing

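No paired analysis was possible because the deposited columns are pooled over replicates, and for the same reason no replicate could be left out. At day 5 versus day 0 the 7 loci apart became 3 with a pseudocount of 5 (C1qb, Clu and F13a1), 4 with an FPKM of at least 5 (C1qb, Cfp, Clu and F13a1), 4 with a log2 ratio of at least 2 (Cfp, Clu, F5 and Tfpi2), 13 without intervals, and 11 when each FPKM only had to lie outside the other interval. At day 15 versus day 0 the 6 became 4 with a pseudocount of 5 (Cfp and C3ar1 lost), 5 with an FPKM of at least 5 (Cfp lost), 1 (C1qb) with a log2 ratio of at least 2, 11 without intervals, and 9 with values outside the other interval (C1qa, Pros1 and Tfpi2 gained). At day 15 versus day 5 the 0 became 2 without intervals (C5ar1 and F5, both lower) and 1 (F5) with values outside the other interval. In the comparisons with day 0 all these loci were higher. With a pseudocount of 5 the members' median log2 ratio was 0.73 at day 5 versus day 0, 0.64 at day 15 versus day 0 and -0.10 at day 15 versus day 5. Without a filter it was 0.49 at day 15 versus day 0 and -0.082 at day 15 versus day 5. For day 15 versus day 5 it turned to 0.039 with an FPKM of at least 5 and was -0.32 after leaving out the 50 most abundant loci, beside -0.18 as reported, so no direction is given for it. The causes of these changes were not tested, apart from those a stricter or looser rule makes by its construction. With common loci centred, 7 and 6 members were apart from day 0 at days 5 and 15, and with the 50 most abundant loci left out 8 (F2r added) and 6. Depth is unknown and limits calls at low FPKM.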
